A study of Mus musculus with 8 samples.

Results

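The genes described here are 4 ligands and 5 receptors or coreceptors through which somatic cells of the gonad support germ cells. They were chosen by name from the KIT, CXCR4, GDNF and CSF1 axes, and all 9 were found among the 46078 mouse Ensembl gene IDs counted. Their ligands are Kitl, Cxcl12, Gdnf and Csf1. Their receptors are Kit, Cxcr4, Gfra1 with Ret, and Csf1r.

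RNA-sequencing libraries came from 4 groups of cultured XY mouse cells of the C57BL/6 strain, with 2 biological replicates each. The tcESCs are embryonic stem cells with the genotype XY;tesco-cfp, in which cyan fluorescent protein is driven by the testis enhancer of Sox9. The tc;Sf1ESCs, XY;tesco-cfp;Sf1, are 1 clone of that line carrying a transgene for Sf1, the product of Nr5a1. SCLCs, the Sertoli cell-like cells, were differentiated from tc;Sf1ESCs, keep both transgenes, and were sorted for CFP at day 12 of culture, so they came from the same single clone. The todPGCLCs, germ cell-like cells, have the genotype XY;Prdm1-gfp and were sorted from testicular organoids at day 6. They carry neither tesco-cfp nor the Sf1 transgene and come from a different stem cell line, so in every comparison that includes them cell type and line of origin cannot be told apart. The comparison asked is that of ligand RNA in SCLCs with receptor RNA in todPGCLCs and in the stem cell lines.

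As background, KIT ligand, made by Sertoli cells and other somatic cells, signals through the receptor tyrosine kinase KIT and keeps migrating primordial germ cells and differentiating spermatogonia alive. CXCL12 guides germ cells to the gonad through CXCR4. GDNF from Sertoli and peritubular cells maintains spermatogonial stem cells by binding the coreceptor GFRA1, which activates the kinase RET, while CSF1 acts through CSF1R, a kinase of the KIT class best known in macrophages.

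The libraries held 25411033 to 30680191 reads on genes, at which 3 counts correspond to 0.0978 to 0.118 CPM (gene counts scaled by library size, with TMM factors for all levels given below). The replicates of SCLCs stood furthest apart. Over all genes, log2 ratios of replicate 1 to replicate 2 had an SD of 0.518 in SCLCs and 0.310 to 0.378 in the other groups, and summed visceral endoderm markers (9 genes) were 1951 CPM in SCLC replicate 1 and 3374 in replicate 2, against 7.35 to 13.4 CPM in stem cells and 24.1 to 35.6 in todPGCLCs. Nr5a1 had 1 and 0 counts in tcESCs, 52 and 30 in tc;Sf1ESCs, 341 and 535 in SCLCs, and 6 and 5 in todPGCLCs. Of the Sertoli markers, Gata4 stood at 442 CPM and Sox9 at 6.38 CPM in SCLCs, but Amh (10 and 22 counts) and Dhh (5 and 1) did not exceed the highest stem cell libraries and Fshr was at 0. Of 11 Sertoli markers tested, 8 were higher in SCLCs than in tcESCs and 6 in todPGCLCs, and 6 were higher and 3 lower in SCLCs than in todPGCLCs (of all genes 24.4%, 18.1%, 19.5% and 18.5%). Nr5a1, Cldn11, Sox9 and Inha passed the count filter only through groups in which they were high. The counts of called markers are therefore no evidence about the list. Wt1 was 6.95-fold and Dmrt1, which germ cells also express, 4.15-fold higher in todPGCLCs than in SCLCs, and Sox9 stood at 3.54 CPM in todPGCLCs against 0.170 in tcESCs. The 12 markers summed to 615 and 643 CPM in SCLCs, 136 and 166 in todPGCLCs and 19.3 to 25.7 in stem cells. Most of each sum in the differentiated groups was a single gene, Gata4 in SCLCs and Dmrt1 (106 CPM) in todPGCLCs. These sums therefore mostly follow those genes and not the whole list. The part of the 12 markers in the rises of Kitl, Cxcl12, Gfra1 and Csf1 in todPGCLCs was not tested. The 8 primordial germ cell markers summed to 796 and 797 CPM in todPGCLCs against 151 to 371 elsewhere, among them Prdm1, the gene of the reporter, at 177 CPM. Dazl (142 CPM), Prdm14 (45.7) and Nanos3 (2.99) did not exceed the highest stem cell group (182, 61.7 and 9.19). In such bulk libraries, fewer cells expressing a gene and less RNA per cell cannot be told apart.

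Kitl is made in a form with an extracellular cleavage site and a form without it, which differ by 1 coding exon. That exon is shown because the counts used here sum both forms and cannot separate a soluble from a membrane-held ligand. It is exon 6 of the longer transcript, 84 bases, at chr10:100080857-100080940 (GRCm38, plus strand). It is in capitals below between 24 coding bases on either side, and the shorter form joins those flanks directly.
Kitl, exon included: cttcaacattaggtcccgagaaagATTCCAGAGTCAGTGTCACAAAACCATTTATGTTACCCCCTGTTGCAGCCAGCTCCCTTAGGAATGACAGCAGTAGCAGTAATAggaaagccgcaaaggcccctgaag
Kitl, exon skipped: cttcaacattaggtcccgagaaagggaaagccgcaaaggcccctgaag

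Kit, the KIT receptor (ENSMUSG00000005672, chromosome 5), had the most RNA per length of the 9 genes in every group. Its level was 214 and 202 CPM in tcESCs, 280 and 280 in tc;Sf1ESCs, 362 and 284 in SCLCs and 249 and 245 in todPGCLCs. No group lacked it, and SCLCs, the somatic cell-like cells, were highest. Against tcESCs, Kit in SCLCs was 1.55-fold higher, a log2 difference of 0.63 ± 0.10 (SE; adjusted p = 0.000498 by the quasi-likelihood test of edgeR, as for each adjusted p below unless another tool is named, after Benjamini-Hochberg correction across 16707 genes). That is under the 2-fold limit required here together with an adjusted p under 0.05 before a gene was called changed, and Kit was called in none of the 6 comparisons. Between SCLCs and todPGCLCs the log2 difference was 0.39 (95% interval 0.15 to 0.62). Of 7 markers of mast cells and melanocytes, other cells that use KIT, 5 (Cpa3, Mcpt4, Fcer1a, Dct and Tyr) were at 0 in SCLCs and in both stem cell lines, and Mitf (22.0 against 97.6 CPM) and Pmel (3.78 against 8.61 CPM) were lower in SCLCs than in tcESCs.

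Kitl, the KIT ligand (ENSMUSG00000019966, chromosome 10), was counted at 3.43 and 3.61 CPM in tcESCs, 11.1 and 10.9 in tc;Sf1ESCs, 6.12 and 10.7 in SCLCs and 15.6 and 22.6 in todPGCLCs. The todPGCLCs, not the somatic cell-like cells, were highest, and tcESCs were lowest without overlap. Compared with tcESCs, Kitl rose in tc;Sf1ESCs by a log2 fold change of 1.64 ± 0.28 (adjusted p = 0.00258, edgeR) and in todPGCLCs by 2.43 ± 0.28 (adjusted p = 0.000101). It also rose in SCLCs against tcESCs, by 1.26 ± 0.28 (adjusted p = 0.00341), but with SCLC replicate 2 left out this was 0.81 and under 2-fold. Against their own parental clone, SCLCs did not pass the test for Kitl (log2 difference −0.38, 95% interval −0.98 to 0.22). The todPGCLCs stood above tc;Sf1ESCs by 0.80 ± 0.26 (adjusted p = 0.0229), under 2-fold, and by 1.05 without todPGCLC replicate 1, when it was called. Kitl was lower in SCLCs than in todPGCLCs by a log2 difference of −1.18 ± 0.26 (adjusted p = 0.00325), which moved to −0.83 without SCLC replicate 1 and −0.89 without todPGCLC replicate 2, again under 2-fold.

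**Figure D1:**
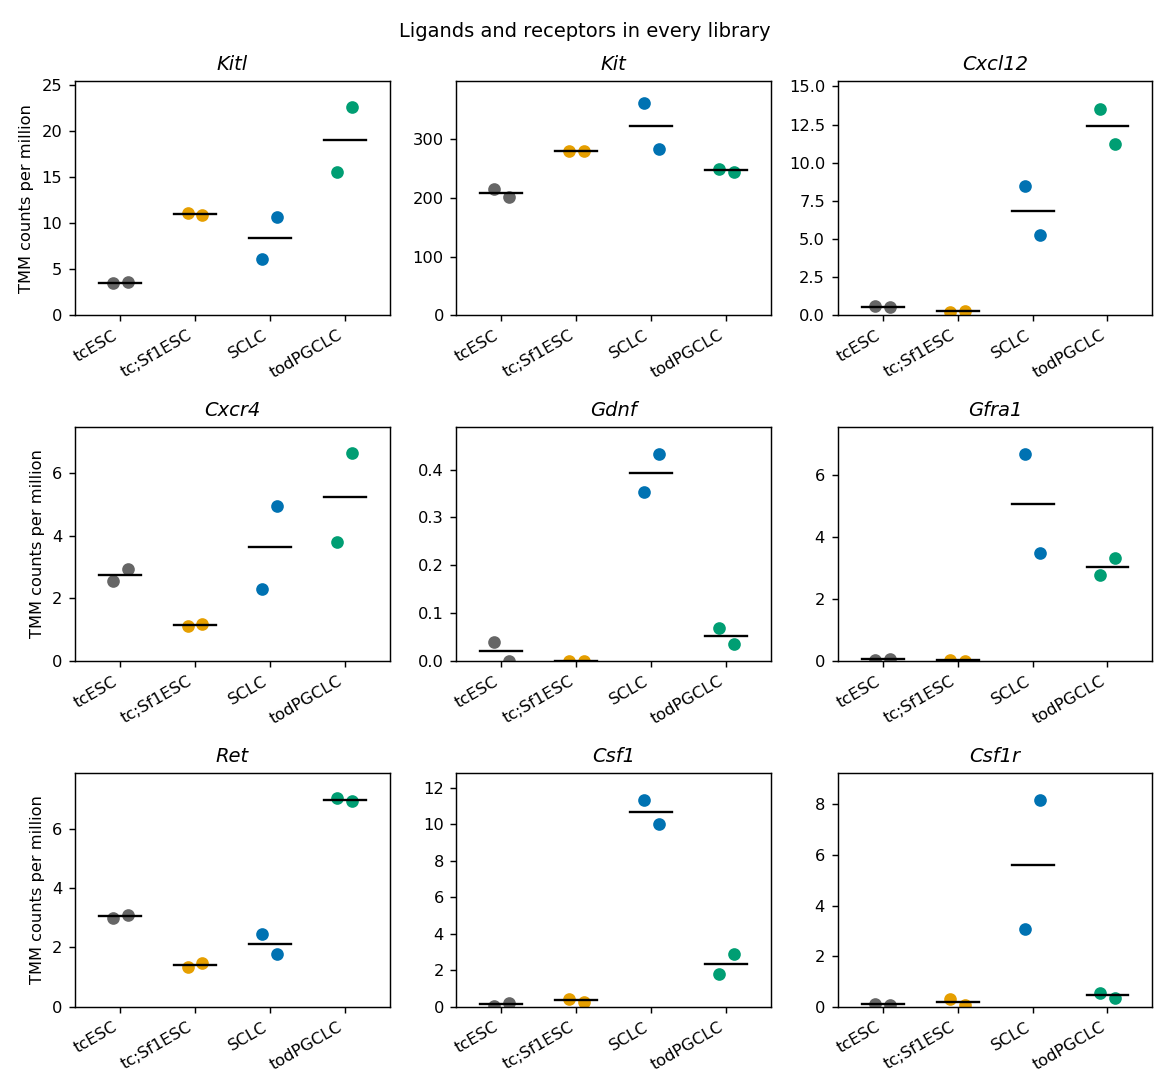
Level of each gene in the 8 libraries, in CPM on linear axes starting at 0. Points are libraries and bars are means of the 2 replicates. Kit is above 200 CPM in every library, Csf1 and Csf1r are highest in SCLCs, and Kitl, Cxcl12 and Ret have their highest means in todPGCLCs.

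Cxcl12, the chemokine that binds CXCR4 (ENSMUSG00000061353, chromosome 6), had 15 and 16 counts in tcESCs, 6 and 7 in tc;Sf1ESCs, 215 and 146 in SCLCs and 392 and 313 in todPGCLCs. Both differentiated groups lay well above both stem cell lines. It rose in SCLCs by 3.61 ± 0.31 on the log2 scale against tcESCs (adjusted p = 8.19e-06, edgeR) and by 4.77 ± 0.36 against tc;Sf1ESCs (adjusted p = 3.51e-06). In todPGCLCs it rose by 4.47 ± 0.31 (adjusted p = 5.71e-06) and 5.63 ± 0.35 (adjusted p = 2.75e-06) against the same lines. Between the stem cell lines the difference was −1.16 ± 0.48 (adjusted p = 0.0964). That difference was called in 2 of 11 other settings, with every counted gene kept and with only the 4 libraries compared. The ligand had more RNA in todPGCLCs than in SCLCs, but by less than 2-fold (log2 difference −0.86, 95% interval −1.39 to −0.33, adjusted p = 0.00961), and without SCLC replicate 1 that difference was −1.23 and was called.

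Its receptor Cxcr4 (ENSMUSG00000045382, chromosome 1) had 65 and 90 counts in tcESCs, 29 and 32 in tc;Sf1ESCs, 59 and 138 in SCLCs and 110 and 186 in todPGCLCs. The tc;Sf1ESCs were lowest, and SCLCs overlapped both tcESCs and todPGCLCs. Cxcr4 rose against tc;Sf1ESCs, in SCLCs by 1.66 ± 0.42 (adjusted p = 0.00646, edgeR) and in todPGCLCs by 2.18 ± 0.42 (adjusted p = 0.00161). The first was 1.02 without SCLC replicate 2 and 2.11 without SCLC replicate 1, and both calls held with any 1 library left out. Against tcESCs neither passed the test, with log2 differences of 0.41 ± 0.38 in SCLCs (adjusted p = 0.362) and 0.92 ± 0.38 in todPGCLCs (adjusted p = 0.0599). Without SCLC replicate 2 the difference of SCLCs from tcESCs was −0.24, and without todPGCLC replicate 1 that of todPGCLCs was 1.28 and was called.

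Gdnf, the ligand that GFRA1 and RET share (ENSMUSG00000022144, chromosome 15), was at the edge of detection. It had 1 and 0 counts in tcESCs, 0 and 0 in tc;Sf1ESCs, 9 and 12 in SCLCs and 2 and 1 in todPGCLCs, a mean of 0.392 CPM in SCLCs. Both SCLC libraries were above every other library, but the gene did not pass the filter of a mean count above 10. The summed counts were 22.1 times higher in SCLCs than in tcESCs (95% counting interval 3.55 to 914) and 7.47 times higher than in todPGCLCs (2.23 to 39.1). The excess over tc;Sf1ESCs was at least 5.18-fold by the lower 95% counting limit (6.96-fold against a floor of 3 counts over the group). These intervals cover counting error only. With every gene that had a count kept, edgeR gave adjusted p of 0.00206, 0.0148 and 0.000299 against tcESCs, todPGCLCs and tc;Sf1ESCs, and DESeq2 gave 0.0782, 0.195 and 0.0179. The fitted log2 differences were close, 4.13 and 4.40 against tcESCs and 2.80 and 2.91 against todPGCLCs, while the calls differed between the tools.

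Gfra1, the GDNF coreceptor (ENSMUSG00000025089, chromosome 19), had 1 and 2 counts in tcESCs and 1 and 0 in tc;Sf1ESCs, against 170 and 97 in SCLCs and 80 and 93 in todPGCLCs. It was thus near 0 in the stem cells and present both in the somatic and in the germ cell-like group. It rose in every comparison of a differentiated group with a stem cell line (adjusted p from 9.94e-06 to 6.49e-05, edgeR). By summed counts SCLCs stood 93.7 times above tcESCs (95% counting interval 31.7 to 457) and todPGCLCs 56.9 times (19.1 to 278). SCLCs and todPGCLCs did not pass the test against each other (log2 difference 0.73, 95% interval −0.03 to 1.49, adjusted p = 0.0776), but without SCLC replicate 2 the difference was 1.14 and was called. Of 6 markers of kidney precursors, where GDNF signalling also acts, 4 were tested, and 3 were higher and 1 lower in SCLCs than in tcESCs, beside 24.4% and 18.2% of all genes. Pax2 and Pax8 passed the count filter only through groups in which they were high, so these counts are no evidence about the list. Pax2 had 2 and 2 counts in tcESCs and 77 and 97 in SCLCs, Pax8 1 and 5 against 36 and 45, and Six2 14 and 17 against 55 and 50, while Osr1, not tested, had 0 and 0 against 31 and 17 and Foxd1 fell from 5.17 to 1.33 CPM. The list summed to 9.62 and 8.52 CPM in SCLCs, 5.05 and 4.33 in todPGCLCs and 5.60 to 6.30 in stem cells, and its part in the levels of Gdnf and Gfra1 was not tested. Exons of Gfra1 overlap an antisense gene, Gm16277, over 416 bases, and whether counting used the strand is not given in the sources used here.

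Ret, the signalling partner of GFRA1 (ENSMUSG00000030110, chromosome 6), followed another order. Its counts were 76 and 95 in tcESCs, 34 and 40 in tc;Sf1ESCs, 62 and 49 in SCLCs and 203 and 194 in todPGCLCs. The todPGCLCs were above all other libraries and tc;Sf1ESCs were below all. Ret rose in todPGCLCs by 1.19 ± 0.20 against tcESCs (adjusted p = 0.00096, edgeR) and by 2.32 ± 0.22 against tc;Sf1ESCs (adjusted p = 2.97e-05). It was lower in SCLCs than in todPGCLCs by a log2 difference of −1.74 ± 0.21 (adjusted p = 9.59e-05). It fell in tc;Sf1ESCs against tcESCs (log2 difference −1.12 ± 0.23, adjusted p = 0.00612), a call lost without tc;Sf1ESC replicate 1 (adjusted p = 0.0552). In SCLCs, Ret missed the threshold against tcESCs (log2 difference −0.54 ± 0.22, adjusted p = 0.0513) and tc;Sf1ESCs (0.58 ± 0.24, adjusted p = 0.052), with opposite signs.

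Csf1, the ligand of CSF1R (ENSMUSG00000014599, chromosome 3), differed between SCLCs and each of the other groups. It had 1 and 7 counts in tcESCs, 11 and 7 in tc;Sf1ESCs, 288 and 278 in SCLCs and 52 and 80 in todPGCLCs. SCLCs were highest and todPGCLCs intermediate, with no overlap between them or with the stem cells. Csf1 rose in SCLCs by 6.19 ± 0.46 against tcESCs (adjusted p = 3.59e-06, edgeR), by 4.95 ± 0.41 against tc;Sf1ESCs (adjusted p = 6.79e-06) and by 2.19 ± 0.32 against todPGCLCs (adjusted p = 0.000274). In todPGCLCs it also rose, by 3.99 ± 0.51 (adjusted p = 0.000188) against tcESCs and 2.76 ± 0.44 (adjusted p = 0.000597) against tc;Sf1ESCs. Every call held with any 1 library left out, but the size against tcESCs rested on their few counts. Without tcESC replicate 1 and 2 it was 5.48 and 7.88 in SCLCs, and 3.28 and 5.68 in todPGCLCs.

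Csf1r, its receptor (ENSMUSG00000024621, chromosome 18), had 3 and 2 counts in tcESCs, 8 and 2 in tc;Sf1ESCs, 78 and 227 in SCLCs and 16 and 10 in todPGCLCs. The receptor was thus highest in the same cells as its ligand, with replicate 2 at 8.16 CPM and replicate 1 at 3.06. Csf1r rose in SCLCs by 5.91 ± 0.74 against tcESCs (adjusted p = 8.84e-05, edgeR), 4.86 ± 0.66 against tc;Sf1ESCs (adjusted p = 0.000153) and 3.61 ± 0.57 against todPGCLCs (adjusted p = 0.000459). Leaving out either SCLC library kept these calls, at 6.45 and 5.04 against tcESCs without replicate 1 and 2. With any 1 library left out the difference ranged from 3.996 (without SCLC replicate 2) to 6.17 (without tc;Sf1ESC replicate 1) against tc;Sf1ESCs, and from 2.74 to 4.15 (without SCLC replicate 2 and 1) against todPGCLCs, and the calls held. In todPGCLCs, Csf1r missed the threshold against tcESCs (log2 difference 2.30 ± 0.98, adjusted p = 0.0687), which DESeq2 placed past it (adjusted p = 0.0237). It was called there in 3 of 9 other settings, and with any 1 library left out the difference was 1.86 to 2.68. Against tc;Sf1ESCs it also missed the threshold (1.25 ± 0.85, adjusted p = 0.226, edgeR), but it was called with every counted gene kept.

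Csf1r is best known as a macrophage gene, and the 8 blood and macrophage markers were therefore counted in the same libraries. In SCLCs, Ptprc and Adgre1 were at 0, Tyrobp had 1 and 1 counts, Aif1 2 and 4, Cx3cr1 1 and 0, Itgam 20 and 13, Spi1, the transcription factor of the myeloid lineage, 7 and 11, and Cd68, a lysosomal gene, 1375 and 1398. The sum was 55.2 and 51.3 CPM against 25.1 to 36.3 elsewhere. Of these 8 markers 3 were tested. Cd68 was higher in SCLCs than in tc;Sf1ESCs (2.70-fold, adjusted p = 5.59e-06, edgeR) and todPGCLCs (2.26-fold, adjusted p = 2.29e-05). Itgam was higher than in tcESCs (0.626 against 0.203 CPM, adjusted p = 0.0149) but lower than in todPGCLCs (1.97 CPM, adjusted p = 0.00298), and Spi1 was lower than in both stem cell lines. Markers of visceral endoderm did move with Csf1r between the SCLC replicates: Ttr, a transport protein of that tissue and of liver, had 1240 and 3411 counts and Afp 604 and 1400, and their part in the result was not tested. Exons of Csf1r overlap 873 bases of Hmgxb3 on the other strand.

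**Figure D2:**
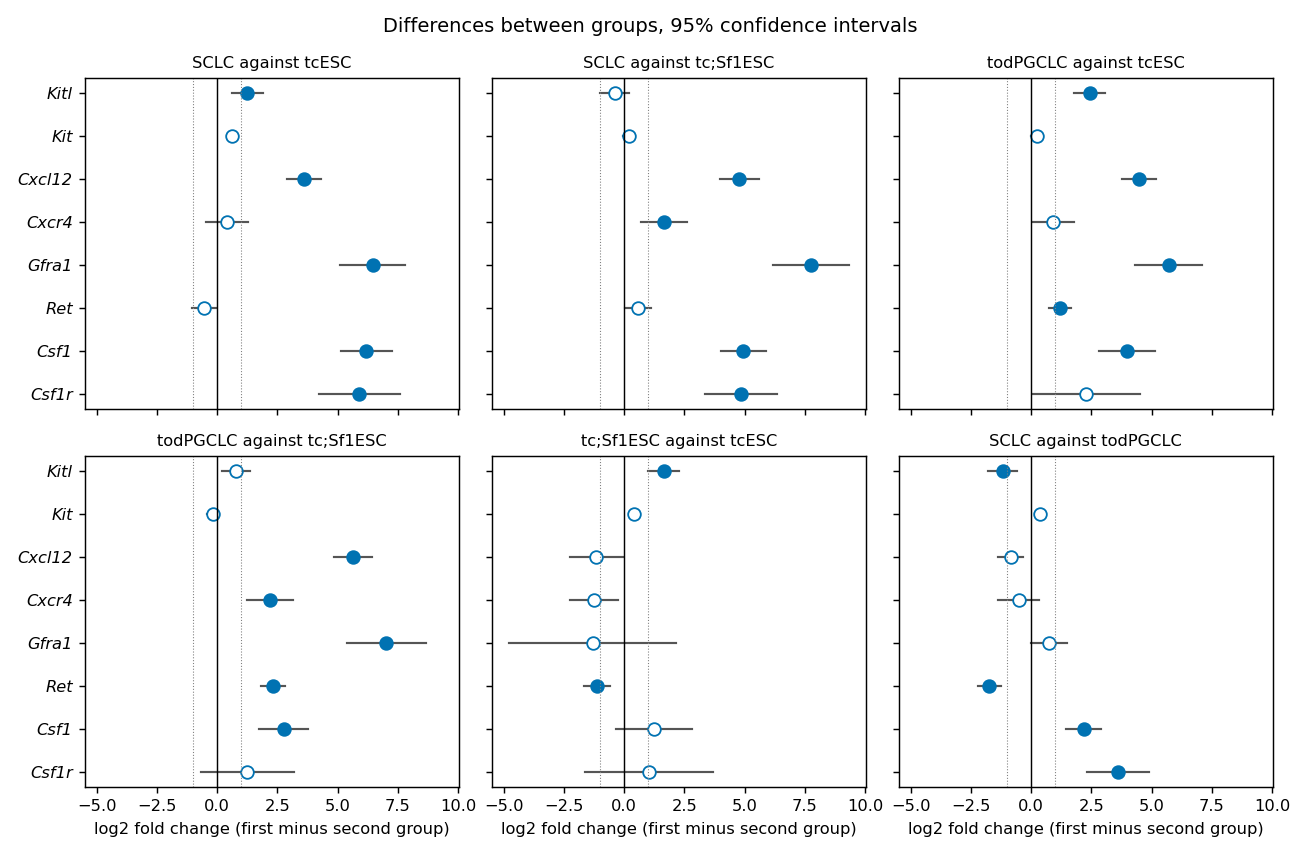
Log2 fold changes of the 8 genes tested in the 6 comparisons, first group minus second, with 95% confidence intervals as lines. Filled points were called (adjusted p under 0.05 and over 2-fold), and dotted lines mark 2-fold. Cxcl12, Gfra1 and Csf1 are called higher in both differentiated groups against both stem cell lines, and Kit is called in no comparison.

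In SCLCs against tcESCs, 5 of the 8 genes tested were higher (Kitl, Cxcl12, Gfra1, Csf1 and Csf1r) and none lower, while of all 16707 genes 42.6% were called, 24.4% higher and 18.2% lower. Against tc;Sf1ESCs 5 were higher (Cxcl12, Cxcr4, Gfra1, Csf1 and Csf1r) and none lower, beside 42.2% of all genes, 24.2% higher and 18% lower. In todPGCLCs 5 were higher than in tcESCs (Kitl, Cxcl12, Gfra1, Ret and Csf1) and none lower, beside 29.4% of all genes, 18.1% higher and 11.2% lower. Against tc;Sf1ESCs 5 were higher in todPGCLCs (Cxcl12, Cxcr4, Gfra1, Ret and Csf1) and none lower, beside 32.7% of all genes, 19.4% higher and 13.3% lower. The comparisons of a differentiated group share their stem cell libraries, so their counts are not independent. Gfra1, Csf1 and Csf1r passed the count filter only through the groups in which they were high, and the counts cannot be read as evidence about the set.

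Between the stem cell lines, 2 of 8 genes were called, Kitl higher and Ret lower in tc;Sf1ESCs, where 12% of all genes were called, 6.13% higher and 5.85% lower. Cxcr4 stood just outside (log2 difference −1.26 ± 0.43, adjusted p = 0.0532, edgeR) and was called in 6 of 11 other settings, among them DESeq2 (adjusted p = 0.0245), the replicate block (adjusted p = 0.0185) and a fit of only the 4 libraries compared (adjusted p = 2.61e-05). It was also called with any 1 of the SCLC or todPGCLC libraries left out, 4 of 8 such fits, with log2 differences from −1.38 to −1.18 over the 8. Between SCLCs and todPGCLCs, Csf1 and Csf1r were higher in SCLCs and Kitl and Ret in todPGCLCs, 4 of 8 genes, beside 38% of all genes, 19.5% with more RNA in SCLCs (higher) and 18.5% with less.

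To compare genes with one another, counts were divided by exon length and given as TPM, the share of each gene in the length-corrected total. In SCLCs the ligand Kitl stood at 5.18 ± 1.99 TPM (SD, n = 2), and the receptor Kit in todPGCLCs at 106 ± 1.57 TPM, in tcESCs at 86.0 ± 4.42 and in tc;Sf1ESCs at 110 ± 0.605. Receptor RNA thus exceeded ligand RNA on the KIT axis in each pairing. Cxcl12 in SCLCs was 3.76 and 2.34 TPM. Its receptor Cxcr4 was 11.1 ± 4.24 TPM in todPGCLCs and 5.59 ± 0.470 in tcESCs, above the ligand, and 2.24 ± 0.0483 in tc;Sf1ESCs, below it. Gdnf in SCLCs was 0.389 ± 0.0552 TPM, with Gfra1 and Ret in todPGCLCs at 2.13 ± 0.272 and 3.95 ± 0.0411. The stem cells held Ret (1.66 ± 0.0197 in tcESCs and 0.724 ± 0.0484 in tc;Sf1ESCs) with almost no Gfra1 (0.0351 and 0.0125 TPM), so only the differentiated groups had both parts of the GDNF receptor above 1 TPM on average. The CSF1 axis ran the other way, with Csf1 at 7.35 ± 0.633 TPM in SCLCs and Csf1r at 0.302 ± 0.0923 in todPGCLCs and below that in both stem cell lines. These are RNA levels only.

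**Figure D3:**
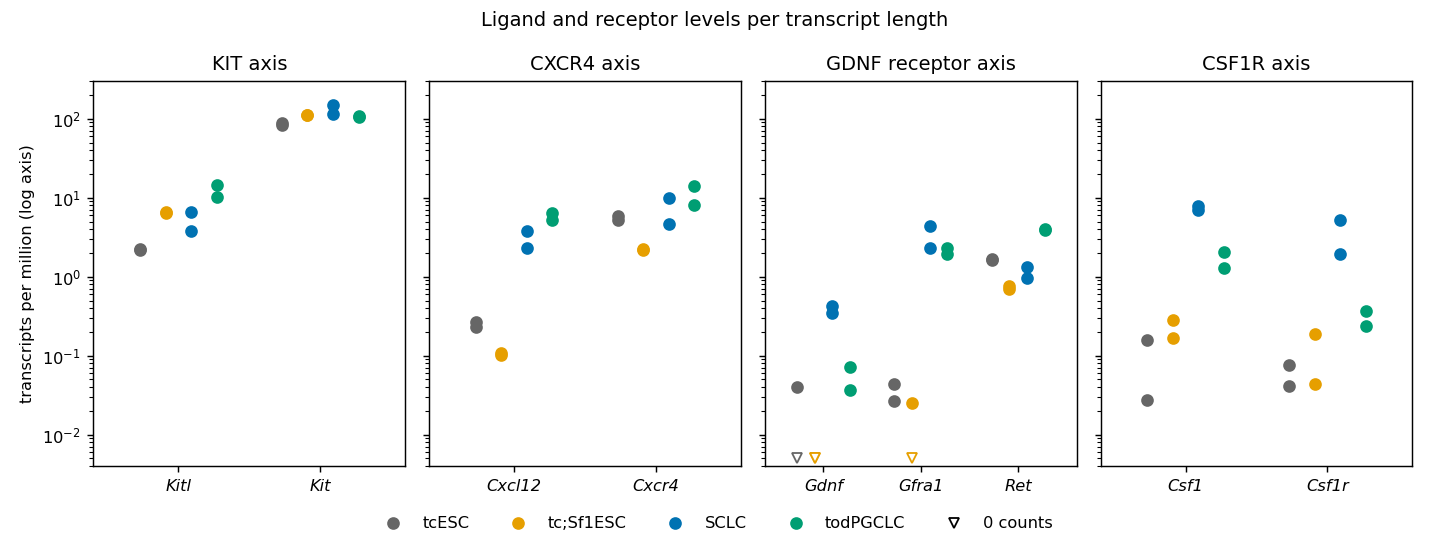
Ligand and receptor RNA by axis in TPM on a log axis. Points are single libraries, coloured by group, and open triangles mark libraries with 0 counts. Kit lies near 100 TPM in all groups, Gfra1 is near or at 0 in both stem cell lines, and Csf1 and Csf1r are highest in SCLCs.

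Within a group the 9 genes spanned a wide range of levels. Kit came first in all 4 groups, ahead of 85.7% to 92.1% of the coding genes detected, and Gdnf came last. In SCLCs the order in TPM was Kit, Csf1 (7.35), Cxcr4 (7.34), Kitl (5.18), Csf1r (3.54), Gfra1 (3.38), Cxcl12 (3.05), Ret (1.13) and Gdnf, and the libraries of each neighbouring pair from Csf1 to Cxcl12 overlapped. Kit, Ret and Gdnf did not overlap their neighbours. In todPGCLCs the order was Kit, Kitl (12.3), Cxcr4 (11.1), Cxcl12 (5.79), Ret (3.95), Gfra1 (2.13), Csf1 (1.69), Csf1r (0.302) and Gdnf (0.0546), and overlap was limited to Kitl with Cxcr4 and Gfra1 with Csf1. In tcESCs Cxcr4 (5.59) came second, then Kitl (2.19), Ret (1.66) and Cxcl12 (0.251) without overlap, while Csf1, Csf1r, Gfra1 and Gdnf, all under 0.1 TPM, overlapped their neighbours. In tc;Sf1ESCs Kitl (6.53) came second, then Cxcr4 (2.24) and Ret (0.724) without overlap, and Csf1, Csf1r and Cxcl12 (0.228 to 0.105) overlapped, each with the next. Gfra1 (0.0125) followed, and Gdnf was at 0.

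The windows before the transcription start were examined for Cxcl12, Cxcr4 and Csf1, which share a rise in both differentiated groups against tc;Sf1ESCs and whose 250 upstream bases hold no annotated exon. RefSeq promoter windows (GRCm38.p6, 250 bases before to 50 after a start) were found for 7 of the 9 genes, and Ret and Csf1r had no entry. Capitals mark matches on either strand to any of 4 motifs. The SP1 motif was spelled GGGCGG. For the NR5A family, to which SF1 belongs, the letters were AAGGTCA. Those searched for GATA4 and its relatives were AGATAA. For the TCF and LEF factors of WNT signalling they were CTTTGAT.
Cxcl12, chr6:117168285-117168534, plus strand: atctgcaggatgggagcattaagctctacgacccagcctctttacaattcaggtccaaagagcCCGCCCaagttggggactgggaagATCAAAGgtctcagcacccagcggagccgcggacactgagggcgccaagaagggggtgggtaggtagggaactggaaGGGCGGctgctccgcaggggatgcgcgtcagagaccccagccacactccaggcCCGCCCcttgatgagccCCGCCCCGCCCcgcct
Cxcr4, chr1:128592300-128592549, minus strand: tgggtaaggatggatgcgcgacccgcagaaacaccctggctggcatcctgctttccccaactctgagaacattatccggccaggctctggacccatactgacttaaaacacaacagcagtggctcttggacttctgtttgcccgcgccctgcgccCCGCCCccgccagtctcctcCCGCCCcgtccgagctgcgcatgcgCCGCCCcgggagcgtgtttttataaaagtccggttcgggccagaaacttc
Csf1, chr3:107760470-107760719, minus strand: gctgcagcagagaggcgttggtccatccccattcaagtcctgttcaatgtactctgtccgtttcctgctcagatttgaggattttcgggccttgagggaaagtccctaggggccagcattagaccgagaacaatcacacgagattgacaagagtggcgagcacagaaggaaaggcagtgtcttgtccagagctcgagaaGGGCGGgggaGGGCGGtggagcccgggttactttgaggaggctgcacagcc
SP1 motifs were found in all 3 windows, and 35.7% of 32851 promoter windows hold one. The last 2 before the start of Cxcl12 share 1 letter. Cxcl12 also held a TCF and LEF match, as 3.73% of windows do, starting 163 bases before the start and read on the opposite strand. The NR5A motif, present in 4.72% of all windows, was in none of the windows of the 7 genes, and the GATA4 motif, present in 11.2%, only in 1 of the windows of Gdnf. GC content of the 250 bases was 64.4% for Cxcl12, 61.2% for Cxcr4 and 56.4% for Csf1, beside a median of 52.4% over all windows. Matches of letters are descriptions and not binding sites.

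Il34, the second ligand of CSF1R, had 417 and 514 counts in tcESCs, 207 and 194 in tc;Sf1ESCs, 7 and 2 in SCLCs and 24 and 9 in todPGCLCs. The stem cells thus held Il34 with little Csf1, and the differentiated groups Csf1 with little Il34. Against tcESCs, Il34 fell in SCLCs (log2 difference −6.58 ± 0.43, adjusted p = 1.56e-06, edgeR) and in todPGCLCs (−4.83 ± 0.36, adjusted p = 8.64e-06). Csf3r, the receptor of granulocyte colony-stimulating factor, also fell, from 3.71 CPM in tcESCs to 0.172 in SCLCs and 0.331 in todPGCLCs. Of the 6 genes listed with this axis 3 were tested, and these 2 were called lower in each of these comparisons, where 18.2% and 11.2% of all genes were. Il34 and Csf3r passed the count filter only through the stem cells, where they were high, so these counts are no evidence about the list. The third, Csf2ra, was not called.

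Of 13 genes listed around CXCL12, all were tested, and 3 were higher and 3 lower in SCLCs than in tcESCs (median log2 difference 0.06, beside 0.05 for all genes), near the 24.4% and 18.2% of all genes. Dpp4, a membrane peptidase that cleaves CXCL12, rose most, from 3.59 and 4.33 CPM in tcESCs to 84.5 and 199 in SCLCs, a log2 difference of 5.15 ± 0.41 (adjusted p = 5.01e-06, edgeR). Dpp4 was higher in SCLC replicate 2, as were Csf1r and the summed endoderm markers, whose part in the result was not tested. Grk5 and Cd74 were lower there. Ackr3, the decoy receptor that takes up CXCL12, held 12.6 to 15.6 CPM on average in all 4 groups and was called in no comparison. In todPGCLCs 4 of 13 were higher than in tcESCs and none lower, beside 18.1% and 11.2% of all genes, including the arrestin gene Arrb1 (45.2 against 15.4 CPM, adjusted p = 5.31e-05) and Mif, which encodes another ligand of CXCR4 (273 against 130 CPM, adjusted p = 0.000186).

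**Figure D4:**
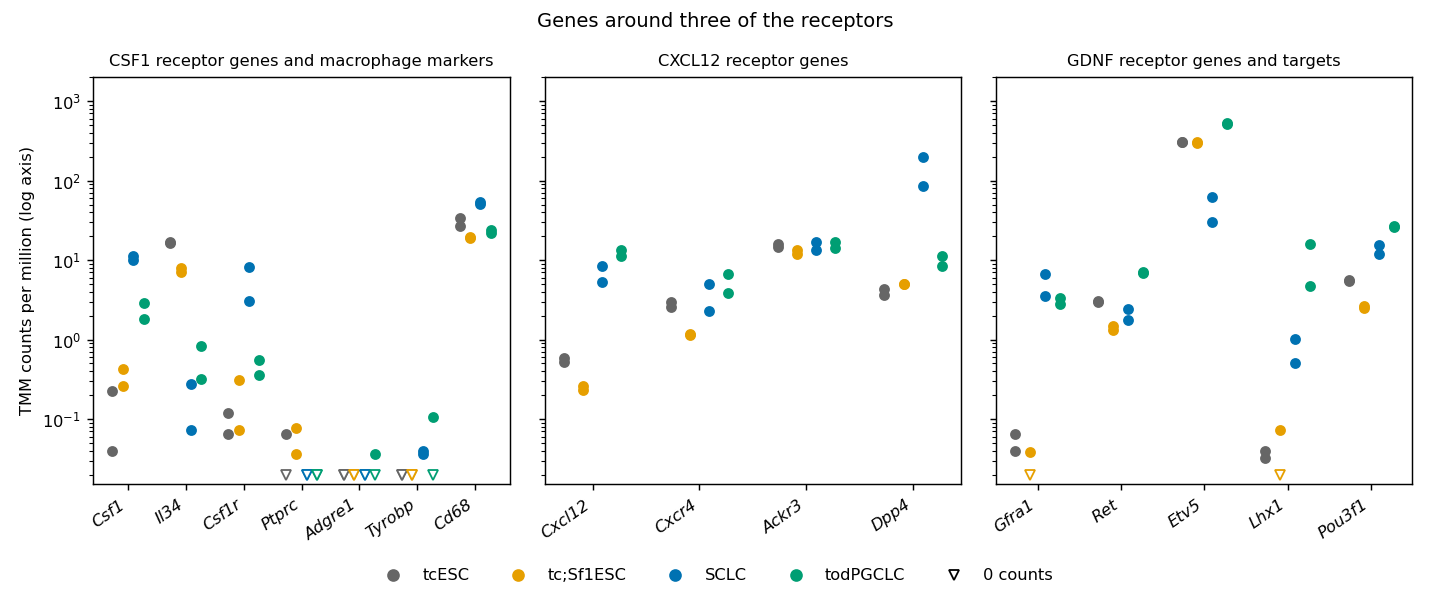
Genes around the CSF1, CXCL12 and GDNF receptors, in CPM on a log axis. Points are libraries, coloured by group, and open triangles mark 0 counts. Il34 is high where Csf1 is low, Ptprc and Adgre1 are at 0 in SCLCs, Ackr3 is called in no comparison, and Etv5 and Lhx1 are highest in todPGCLCs.

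Of 8 genes known to respond to GDNF in germline stem cells, 7 were tested, and in todPGCLCs 4 were higher and 1 lower than in tcESCs, beside 18.1% and 11.2% of all genes. Lhx1 passed the count filter through todPGCLCs, so that these counts cannot be read as evidence about the list. Lhx1, which encodes a LIM homeobox factor, had 1 and 1 counts in tcESCs, 0 and 2 in tc;Sf1ESCs, 13 and 28 in SCLCs and 135 and 447 in todPGCLCs. Both todPGCLC libraries were above all others but lay far apart, at 4.67 and 16.0 CPM. By summed counts todPGCLCs stood 287 times above tcESCs (95% counting interval 79.1 to 2375). Pou3f1 rose in todPGCLCs by 2.26 ± 0.15 (adjusted p = 5.39e-06, edgeR), and Zbtb16, the PLZF gene of spermatogonial progenitors, fell by 2.32 ± 0.23 (adjusted p = 4.2e-05). Etv5, an ETS factor gene that FGF signalling also induces, was 304 CPM in both stem cell lines, 46.2 in SCLCs and 526 in todPGCLCs, and differed between SCLCs and todPGCLCs by −3.51 ± 0.27 (adjusted p = 5.72e-06). In SCLCs, 3 of the 7 were higher and 2 lower than in tcESCs, beside 24.4% and 18.2% of all genes.

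Among 10 other genes of the GDNF family and its receptors, 7 were tested, and none was higher and 3 lower in SCLCs than in tcESCs, beside 24.4% and 18.2% of all genes. Those were Gdf15 (30 and 23 counts against 169 and 206), Nrtn, the ligand neurturin (1.76 against 6.44 CPM), and Ncam1, an alternative GDNF receptor (12.1 against 36.4 CPM). In todPGCLCs 2 were higher and 2 lower, beside 18.1% and 11.2%. Against todPGCLCs, SCLCs had less Nrtn (log2 difference −2.12 ± 0.24, adjusted p = 6.35e-05, edgeR) and more Sdc3, a heparan sulphate proteoglycan that binds GDNF (1.59 ± 0.11, adjusted p = 2.47e-06).

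Downstream of KIT and RET, 37 of 39 relay genes were tested, and 14 were higher and 5 lower in SCLCs than in tcESCs (median log2 difference 0.42, beside 0.05 for all genes), where 24.4% of all genes were higher and 18.2% lower. In todPGCLCs 8 were higher and 3 lower (median 0.16, beside 0.03), where 18.1% and 11.2% of all genes were, so the share called was near that of all genes. Mmp9, counted among the higher genes of both, passed the count filter only through the groups in which it was high. Mmp9, a secreted protease, had 0 and 4 counts in tcESCs and rose to 5.73 CPM in SCLCs and 6.34 in todPGCLCs. Gab2, a docking protein for phosphatidylinositol 3-kinase, rose in both, to 22.3 and 14.6 CPM from 2.50. Akt1 rose in SCLCs from 35.7 to 240 CPM. Frs2 and Dok2, adaptors that bind RET, were higher in SCLCs than in todPGCLCs, by 2.33 ± 0.08 and 3.46 ± 0.12 on the log2 scale (adjusted p = 8.39e-08 and 1.17e-07, edgeR), although Ret itself was lower there. In tc;Sf1ESCs against tcESCs only Spry4 was called, lower, of the 37, beside 12% of all genes.

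Among other genes of KIT-class receptors and their ligands, 6 of 7 were tested, and 3 were higher and 2 lower in SCLCs than in tcESCs, beside 24.4% and 18.2% of all genes. Pdgfd, among the higher genes, passed the count filter only through SCLCs and todPGCLCs, so these counts are no evidence about the list. Pdgfra, encoding a receptor of platelet-derived growth factors, reached 765 and 912 CPM in SCLCs against 1.66 to 3.63 in all other libraries. The mesenchyme markers, a list that includes Pdgfra, summed to 1154 and 1103 CPM there against 7.51 to 24.8 elsewhere. Most of the sum in SCLCs was Pdgfra itself. Pdgfc fell from 78.3 CPM in tcESCs to 2.59 in SCLCs and 4.18 in todPGCLCs. Of 22 other chemokine genes and receptors 8 were tested, and 4 were higher and 1 lower in the same comparison. Cxcl10 passed the count filter only through SCLCs, so these counts cannot be read as evidence about the list. Cxcl16 rose to 54.3 from 0.765 CPM, and Cxcl10, with 208 and 207 counts in SCLCs and 0 and 0 in tcESCs, was at least 118-fold higher by the lower 95% counting limit (146-fold against a floor of 3 counts over the group).

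The genes whose profiles over the 8 libraries lay nearest to each member were found by the Euclidean distance of centred log2 CPM. For Kitl the nearest was Prom1 (0.520, against a median of 2.995 over 16706 genes), followed by Tbc1d9 and Rec8. For Cxcl12 it was Tdrkh (0.597, median 6.43), then Slc2a12 and Dusp4. For Ret it was the pseudogene Mnd1-ps (0.411, median 2.88), then Igsf9 and Tcp11l1. Kit, whose profile was nearly flat, lay nearest to Tmem184b (0.145, median 1.70), Nek1 and Slc27a1, and Cxcr4 to Cacng4 (0.698, median 2.82), Tubb4a and Ttyh3. For Csf1 it was Ednrb (1.18, median 6.61), then Myh7 and Nsmf, and for Gfra1 it was Apol9a (1.19, median 7.51), then Prss23 and Car12. Csf1r lay nearest to Cd82 (0.844, median 5.79), Fgb (0.855) and Apob (1.21).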

How the data were processed

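Poly-A RNA was made into strand-specific libraries and sequenced as paired ends. The authors filtered reads with Trim Galore, aligned them to GRCm38 with STAR 2.4.0, and deposited raw counts per gene from HTSeq, 1 table per library, per the methods and the submitters' processing notes. Lines that name no gene held 35.6% to 41.6% of reads and were left out. Gene IDs were named with GENCODE M21. One edgeR 4.0.16 quasi-likelihood fit (R 4.3.3, TMM normalization) of 8 libraries in 4 groups was run on the 16707 genes with a mean count above 10, and gave 6 contrasts with Benjamini-Hochberg adjusted p-values. Calls needed over 2-fold and an adjusted p under 0.05. The 95% intervals use the fit's degrees of freedom. With 2 libraries against 2, an exact two-sided permutation test cannot go below 0.333. DESeq2 1.42.0 was an alternative. TPM used union exon length. Replicates are cultures, and same-numbered libraries showed correlations of −0.03 to 0.06 between their deviations, so the numbers do not pair them. The members, lists and markers were chosen with earlier results of these data known. Named genes are the members, up to 3 called genes per list and comparison with the largest change at a mean of at least 1 CPM, and the 3 nearest profiles per member. Ackr3 and the single markers were named for their role after their values were seen. The alternatives were other scalings and filters, DESeq2, a test against 2-fold, fewer libraries, a replicate block and each library left out. DESeq2 on every gene was added after the data were seen.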

Additional observations from a re-analysis of the deposited data

How the results depend on the processing

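The number of members called stayed within 1.5 times its value under every alternative run in 5 of the 6 comparisons. The exception was tc;Sf1ESCs against tcESCs, where 2 of 8 were called. This count was 4 with every counted gene kept, 0 with a test against a 2-fold change, and 4 with only the 4 libraries compared, and leaving out single libraries gave 1 to 4. It was 1 without tc;Sf1ESC replicate 1 and 4 without SCLC replicate 1 or SCLC replicate 2. The cause was not tested. With the replicate number as a block the count was 3 (Kitl, Cxcr4 and Ret), and the block changed the count in no other comparison (5, 5, 5, 5 and 4). Signs turned for Csf1r in tc;Sf1ESCs against tcESCs without tc;Sf1ESC replicate 1 (−0.30; −0.30 to 1.72 over libraries left out), and for Cxcr4 in SCLCs against tcESCs without SCLC replicate 2 (−0.24; −0.24 to 0.86). Neither was called. The test against 2-fold also ended the calls of Kitl in SCLCs against tcESCs and against todPGCLCs, of Cxcr4 in SCLCs against tc;Sf1ESCs and of Ret in todPGCLCs against tcESCs. Other scalings ended no call. At these depths Gdnf, and Gfra1, Csf1 and Csf1r in stem cells, rest on 12 counts or fewer per library, which limits their precision.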
